A study of Mus musculus with 15 samples.

Results

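The LY6 proteins are small, cysteine-rich molecules with a fold of 3 loops, and most of them are held on the cell surface by a glycosylphosphatidylinositol (GPI) lipid anchor. In the mouse they serve as markers by which blood cell populations are sorted, and several of their genes are induced by interferons. This section describes 5 of their genes, Ly6a, Ly6c1, Ly6c2, Ly6d and Ly6e, taken by symbol from a table of 23420 genes. Ly6a encodes Sca-1, a marker of stem cells and activated lymphocytes. Ly6c1 and Ly6c2 encode the Ly-6C antigens of monocytes, some T cells and plasma cells. Ly6d encodes ThB, a marker of B-lineage-committed progenitors, and Ly6e encodes TSA-1, also called Sca-2, a marker of immature thymocytes. They were chosen by their measured levels in these libraries, above all in the plasmablasts, so the levels and differences are a description and no test was applied to them.

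RNA was measured in 15 libraries of 100 sorted cells each, 3 per group, from draining lymph nodes of C57BL6 mice on day 12 after immunization with NP-CGG in CFA. The mice had received CD45.1+ donor B cells carrying B1-8hi (KI/+), a heavy chain knock-in whose receptors bind the hapten NP, so all groups share this receptor. Germinal centre derived plasmablasts (GC-PB; CD138hi CD44hi tdTomato+) came from donors that carried the S1pr2-ERT2cre Tg and ROSA-Ai14 (KI/+) alleles beside the knock-in. There a Cre activated by tamoxifen, given on days 6, 7 and 8, marks with tdTomato the cells that use the S1pr2 promoter at that time. The other groups were germinal centre B cells (B220+ CD38lo GL7hi) from B1-8hi (KI/+) Bcl6-YFP (KI/+) donors. Light zone cells (CXCR4lo CD86hi) were split by the reporter and CD69. Fraction 1 had low Bcl6 with high CD69. Fraction 2 was high for both, and Fraction 3 had high Bcl6 with low CD69. Dark zone cells (DZ) were CXCR4hi CD86lo. The 3 libraries of a group were prepared independently, with no statement on separate mice, so every SD, SE and p-value covers the spread between libraries, which may be technical.

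Levels are the deposited values scaled to equal library totals. The values are read here as numbers of barcoded molecules multiplied by a constant of each library, and 1 molecule corresponds to a level of 0.150 to 0.325. Libraries held 184103 to 376992 molecules. The sort genes followed the labels: Sdc1, which encodes CD138, had a mean level of 19.0 in GC-PB and 0.0547 in Fraction 1, and was listed at 0 in all libraries of the other groups. Bcl6 was listed at 0 in GC-PB and averaged 5.55 in Fraction 1, 21.7 in Fraction 2, 29.7 in Fraction 3 and 25.03 in DZ. Libraries of GC-PB and Fraction 1 carried Xist, a transcript of female cells, while those of Fraction 2, Fraction 3 and DZ had none and carried the Y-linked Ddx3y. The sex of the cells cannot be told apart from the sort gates wherever GC-PB or Fraction 1 is set against Fraction 2, Fraction 3 or DZ. The library constants split the same way, at 0.305 to 0.362 in GC-PB and Fraction 1 and 0.105 to 0.139 in the other groups. Between GC-PB and Fraction 1 the reporter alleles and tamoxifen cannot be told apart from the cell type.

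The 5 genes lie within 349.915 kb of mouse chromosome 15 (mm10, GENCODE annotation). Ly6d is at chr15:74762056-74763620, Ly6a at chr15:74994877-74998031, Ly6c1 at chr15:75044018-75048830 and Ly6c2 at chr15:75108158-75111970, all on the minus strand. Ly6e is at chr15:74955051-74959905 on the plus strand. The starts of Ly6c1 and Ly6c2 are 63.14 kb apart. The 250 bases before each start, from RefSeq on GRCm38.p6, are shown because the pair had parallel levels. They are at chr15:75048838-75049087 for Ly6c1 and chr15:75111972-75112221 for Ly6c2, read on the minus strand, and capitals mark their longest shared run of 20 bases.
Ly6c1: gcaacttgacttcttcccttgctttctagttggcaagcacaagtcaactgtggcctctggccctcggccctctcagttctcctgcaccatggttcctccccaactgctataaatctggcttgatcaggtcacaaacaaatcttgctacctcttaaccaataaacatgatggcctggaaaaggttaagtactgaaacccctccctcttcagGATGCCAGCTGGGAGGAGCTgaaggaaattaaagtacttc
Ly6c2: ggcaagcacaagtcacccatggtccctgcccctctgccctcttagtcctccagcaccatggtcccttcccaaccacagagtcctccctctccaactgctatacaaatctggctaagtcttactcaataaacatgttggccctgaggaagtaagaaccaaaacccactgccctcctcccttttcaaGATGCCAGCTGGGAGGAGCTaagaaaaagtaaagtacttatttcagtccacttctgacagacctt
The shared run GATGCCAGCTGGGAGGAGCT stood 40 to 21 bases before the start of Ly6c1 and 65 to 46 bases before the start of Ly6c2. A global alignment of both windows held 164 identical, 52 mismatched and 68 gapped positions, so 75.9% of the aligned bases were identical. The TATA box letters TATAAA, searched on both strands, were found in Ly6c1, starting 143 bases before the start, and not in Ly6c2. They occur in 12.4% of the 32851 RefSeq windows of this length. Neither window held the letters TTCNNNGAA of a gamma-activated site, which occur in 7.02% of windows.

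This likeness extends to the transcripts and limits how reads can be assigned. Of the distinct 50-base words in annotated Ly6c1 transcripts, 32.8% also occur in another gene, chiefly Ly6c2. The share was 14.4% for Ly6c2 and 19.0% for Ly6a, whose shared words are mostly those of Ly6c1. Ly6d and Ly6e shared no such word with any gene. The deposited values also differed among these genes in how often they were whole. All 15 values of Ly6d and all 15 of Ly6e were whole numbers of molecules, within a tolerance of 0.02. Of the values above 0, 5 of 15 were whole for Ly6a, 1 of 10 for Ly6c1 and 2 of 7 for Ly6c2. Word sharing did not track this in every gene, since the related Ly6f shared no word and 3 of its 14 values above 0 were whole. The split of molecules between Ly6c1 and Ly6c2, and in part Ly6a, is uncertain, while the values of Ly6d and Ly6e do not have this limit.

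All 5 genes had higher levels in each of the GC-PB libraries than in each of the 12 germinal centre libraries. Together they made up 1.55%, 0.964% and 1.11% of the total in GC-PB, and 0.0776% to 0.127% in the germinal centre libraries. Between GC-PB and Fraction 1 the libraries did not overlap for 5 of 5 genes, all higher in GC-PB. Of the 11190 genes tested, 16.1% were higher and 26.7% lower without overlap in this comparison. The median log2 difference of the 5 genes was 3.48, against -0.08 over all tested genes. These values chose the genes, so nothing is read from the count. In bulk samples, a higher share of cells with a transcript and more of it per cell cannot be told apart.

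**Figure D1:**
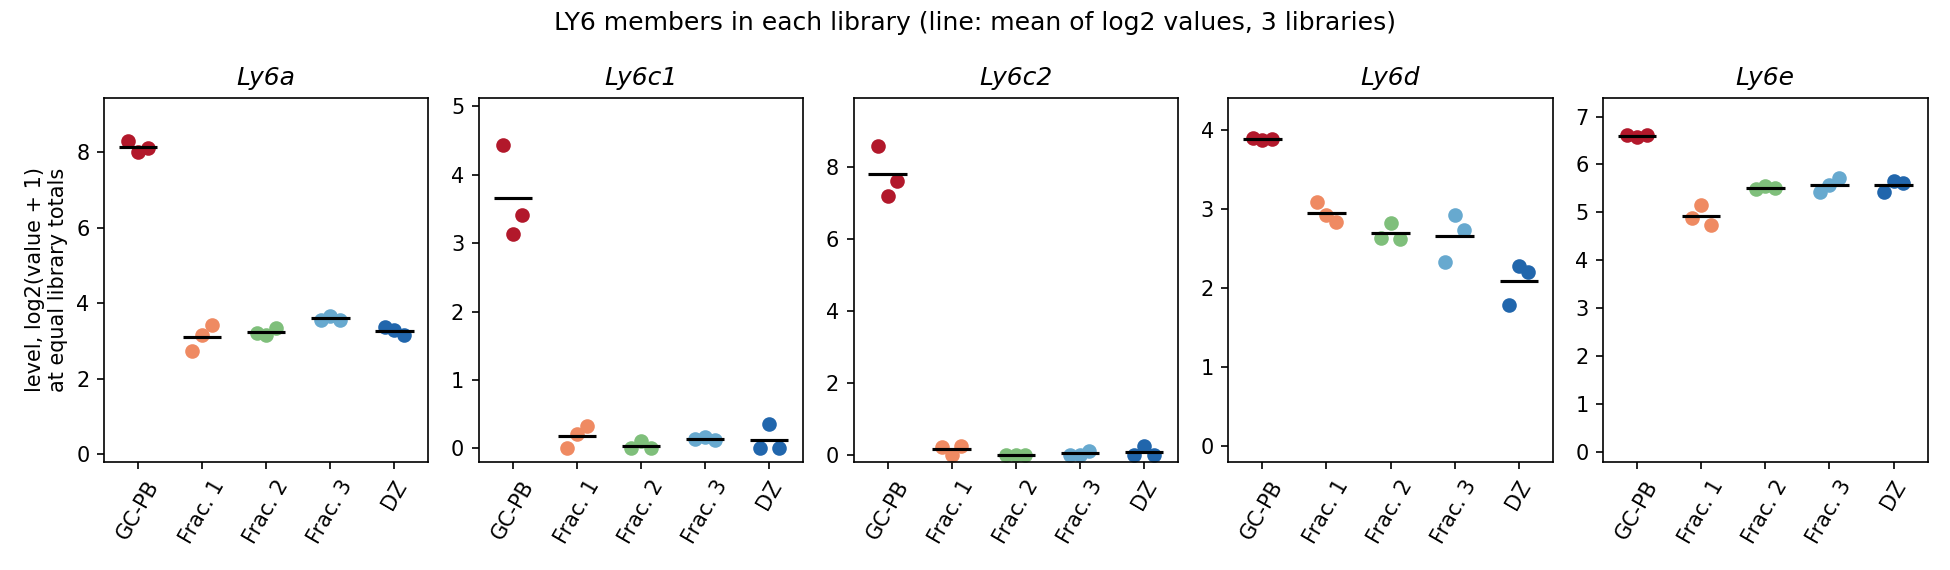
Levels of Ly6a, Ly6c1, Ly6c2, Ly6d and Ly6e in each of 15 libraries, as log2(value + 1) at equal library totals (vertical axes differ between panels). Points are libraries and lines are the means of the 3 log2 values; the GC-PB points lie above all others in every panel, and Ly6c1 and Ly6c2 lie near 0 in the germinal centre groups.

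Ly6c2 showed the widest separation. Its level was 386, 147 and 197 in the GC-PB libraries, which stand for 1189.08, 533.75 and 682.17 molecules. In Fraction 1 it was 0.164, 0 and 0.172, that is 1, 0 and 1 molecule. All 3 Fraction 2 libraries were listed at 0, and in Fraction 3 and DZ a single library each held a part of a molecule. A count of 0 allows up to 3 molecules, a level of 0.458 to 0.504 in the Fraction 2 libraries, so no order among the germinal centre groups is read for this gene. The log2 difference between GC-PB and Fraction 1 was 7.66 ± 0.27 (SE), with a pseudocount of 1. Since Fraction 1 held 2 molecules in all, the molecule totals describe the size better. They were 2405 in GC-PB and 2 in Fraction 1, a depth-adjusted ratio of 2194 with a 95% counting interval of 607 to 18124. Of the 11190 tested genes, 1 had a larger log2 difference in this comparison.

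Ly6c1 followed Ly6c2 at a lower level. It was 20.7, 7.76 and 9.60 in the GC-PB libraries, or 63.58, 28.25 and 33.33 molecules. Fraction 1 had 0, 0.150 and 0.258, Fraction 2 had 0, 0.0804 and 0, Fraction 3 had 0.101, 0.122 and 0.0811, and DZ had 0, 0.273 and 0. None of these germinal centre values reached 2 molecules, so they are below the floor of 3 molecules and their order is not read. The log2 difference between GC-PB and Fraction 1 was 3.48 ± 0.27 (SE), and 125 molecules in GC-PB against 2 in Fraction 1 gave a ratio of 114 with a counting interval of 30.9 to 952.

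The Ly-6C pair also varied most among the plasmablast libraries. The coefficient of variation over the 3 GC-PB libraries was 52.0% for Ly6c2 and 55.0% for Ly6c1, against 10.5% for Ly6a, 1.97% for Ly6e and 0.824% for Ly6d. The values of Ly6e and Ly6d were below the counting error at their depth, 5.54% and 14.6%, so 3 libraries do not measure their spread well. The median over the 787 genes with a GC-PB mean of at least 10 was 14.4%, and 2.67% and 2.29% of these genes had a higher value than Ly6c2 and Ly6c1. Replicate 1 was the high library for both, at 2.63 and 2.66 times the lowest. Their ratio within a library was nearly constant, with 18.7, 18.9 and 20.5 times as many Ly6c2 as Ly6c1 molecules. Reads that match both genes could contribute to this parallel, and their part in it was not tested. Without GC-PB replicate 1 the log2 differences to Fraction 1 were 7.27 for Ly6c2 and 3.09 for Ly6c1.

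**Figure D2:**
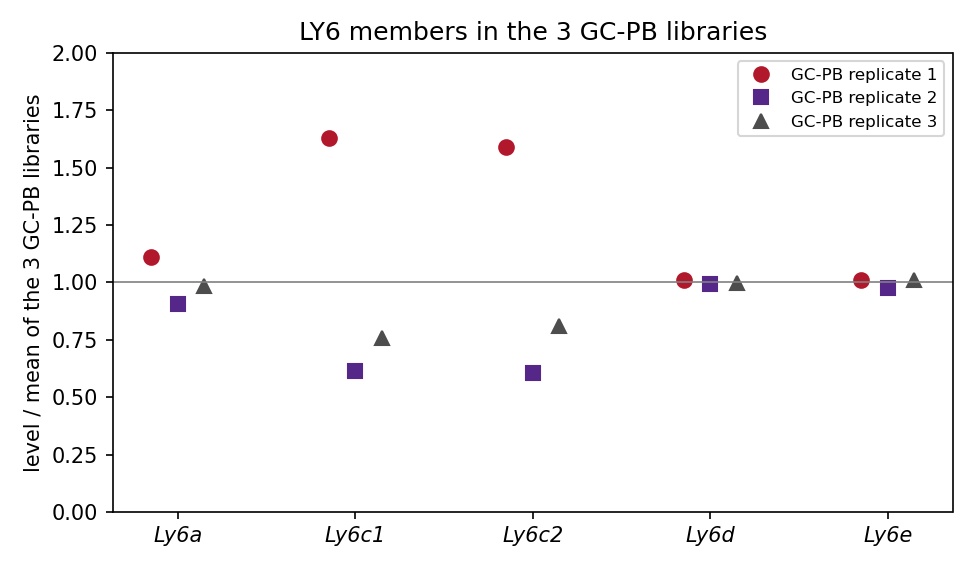
Level of each gene in the 3 GC-PB libraries divided by its mean over them, with a line at 1. Ly6c1 and Ly6c2 are spread widely with replicate 1 highest, while the 3 points of Ly6d and Ly6e nearly coincide.

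Ly6a was present in every library. Its level was 316, 257 and 279 in GC-PB (mean 283.87 ± 29.9, SD, n = 3). Fraction 1 had 5.66, 8.02 and 9.70, Fraction 2 had 8.31, 7.88 and 9.16, Fraction 3 had 10.9, 11.7 and 10.8, and DZ had 9.38, 8.84 and 7.97. The lowest plasmablast library was 21.9 times the highest germinal centre library. The log2 difference between GC-PB and Fraction 1 was 5.04 ± 0.15 (SE), and 8 of the 11190 tested genes had a larger one. Within the germinal centre Fraction 3 stood highest, above DZ by 0.32 ± 0.15 and above Fraction 2, which differed from it by -0.36 ± 0.15, in both cases without overlap. On the values as deposited both pairs overlapped, and the difference between Fraction 2 and Fraction 3 was 0.021. Fraction 2, Fraction 1 and DZ did not differ beyond their spread. Fraction 1 minus Fraction 2 was -0.13 ± 0.15, and 0.058 without Fraction 1 replicate 1.

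Ly6e, like Ly6a, was found in every library, and its values rest on 150 to 342 molecules each. Its level was 97.1, 94.0 and 97.4 in GC-PB, 28.4, 34.6 and 25.8 in Fraction 1, and 44.0, 46.2 and 44.3 in Fraction 2. It was 41.8, 46.7 and 51.8 in Fraction 3 and 42.0, 49.7 and 48.2 in DZ. The order was GC-PB, then Fraction 3, DZ and Fraction 2 with overlapping libraries, and then Fraction 1 below all of them. The log2 difference was 1.68 ± 0.11 (SE) between GC-PB and Fraction 1, and -0.59 ± 0.11 between Fraction 1 and Fraction 2. The sign of this second difference depends on the scale. The deposited values were 55.3, 70.5 and 49.5 in Fraction 1 and 31.5, 31.7 and 33.0 in Fraction 2, a log2 difference of 0.83. Fraction 2 and Fraction 3 differed by -0.06 ± 0.11 and Fraction 3 and DZ by 0.00 ± 0.11 at equal totals.

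Ly6d had the smallest difference between plasmablasts and Fraction 1. Its group means rose from DZ to Fraction 1, but the light zone groups did not all stand apart. Its level was 14.0, 13.7 and 13.8 in GC-PB, and 7.55, 6.60 and 6.18 in Fraction 1. Fraction 2 had 5.21, 6.11 and 5.19, Fraction 3 had 4.04, 6.60 and 5.65, and DZ had 2.46, 3.85 and 3.63. Group means thus ran 3.31 in DZ, 5.43 in Fraction 3, 5.50 in Fraction 2, 6.78 in Fraction 1 and 13.8 in GC-PB. Fraction 2 and Fraction 3 did not differ beyond their spread, and the libraries of Fraction 1 and Fraction 3 overlapped. The log2 differences were 0.94 ± 0.18 (SE) between GC-PB and Fraction 1, 0.26 ± 0.18 between Fraction 1 and Fraction 2, and 0.57 ± 0.18 between Fraction 3 and DZ, each without overlap. On the values as deposited the first was 0.32 and the second 1.54. These values rest on 11 to 50 molecules per library. The spread of the GC-PB libraries, 0.824%, was below the counting error at this depth, 14.6%, so 3 libraries do not measure it well.

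Over the steps inside the germinal centre the genes showed small differences in either direction. Between Fraction 1 and Fraction 2, 1 gene was higher without overlap (Ly6d) and 1 lower (Ly6e), where 11.9% of all tested genes were higher and 16.3% lower in this way. Between Fraction 2 and Fraction 3, none was higher and 2 were lower (Ly6a, and Ly6c1 at under 1 molecule), against 8.59% and 8.38% of all genes. For Fraction 3 and DZ, 2 were higher (Ly6a and Ly6d) and 0 lower, against 7.87% and 6.43%. The median log2 difference of the 5 genes was 0.14, -0.06 and 0.02 in these comparisons, and -0.05, 0.00 and 0 over all tested genes.

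**Figure D3:**
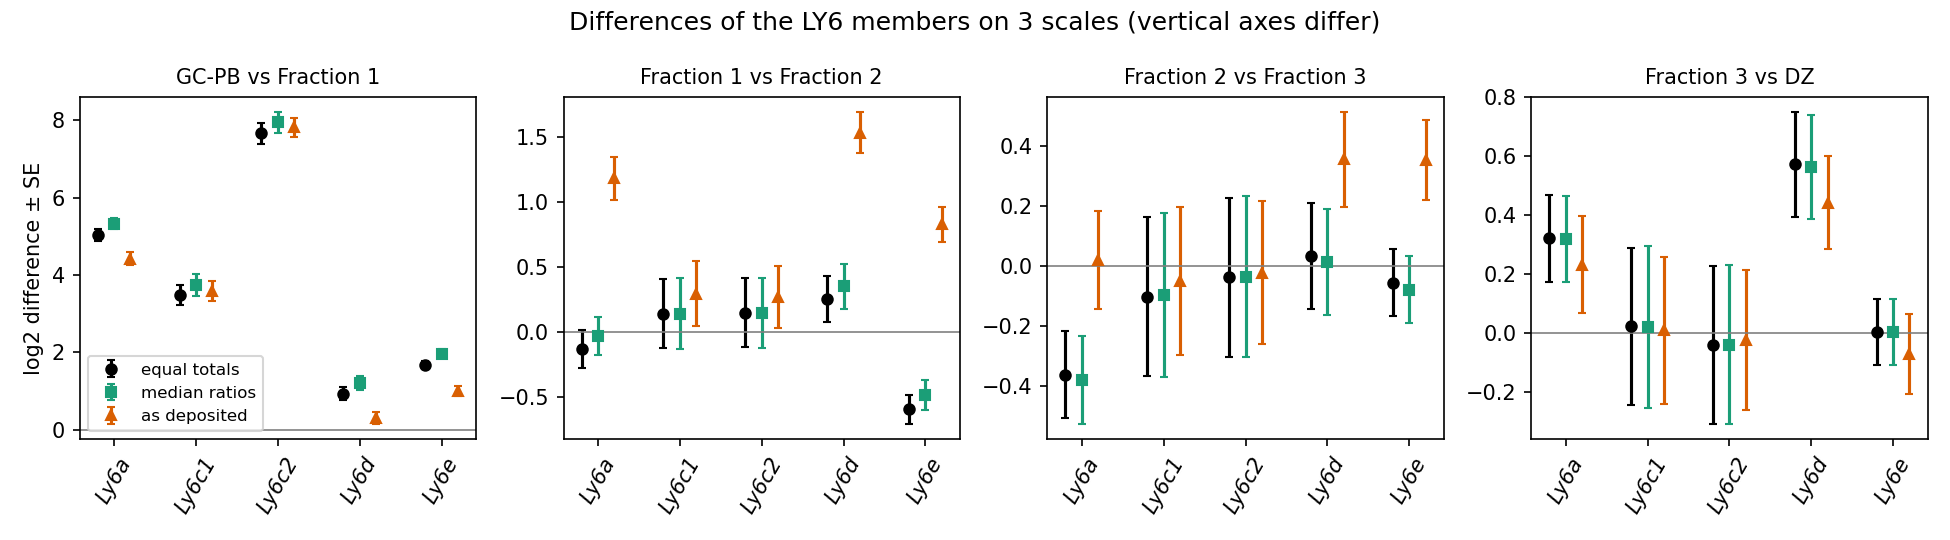
Log2 difference ± SE of each gene in 4 comparisons, at equal library totals (circles), by median ratios (squares) and as deposited (triangles). In the plasmablast comparison all points lie above 0 on each scale, while in Fraction 1 vs Fraction 2 the sign for Ly6e and Ly6a turns on the deposited scale.

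Likeness of profile was measured as the mean absolute difference of log2(value + 1), each gene centred on its own mean, over the 15 libraries and 6403 candidate genes. Closest to Ly6a was Xbp1, a transcription factor of plasma cell secretion, at 0.22. It had 339, 288 and 287 in GC-PB and 4.10 to 9.53 in the germinal centre libraries. Creld2 at 0.28 and Pon3 at 0.33 came next. Closest to Ly6c1 was Rhob, a small GTPase, at 0.20, with 28.3, 10.99 and 14.1 in GC-PB, so that replicate 1 was high there too. Gm4070 and Gvin1 came next, both at 0.21, and had nearly the same values as each other. All germinal centre values of Ly6c1 were under the floor of 3 molecules. Its nearest profiles are therefore set mainly by the GC-PB values that chose the gene, and nothing is read from the match in replicate 1. For Ly6d the nearest were Praf2 at 0.16, Srp54c at 0.17 and Erp44, a protein of disulfide control in the secretory pathway, at 0.18. For Ly6e they were Mlec and Erp29, which act in folding in the endoplasmic reticulum, at 0.11 and 0.12, and Nbr1, an autophagy receptor, at 0.14. Ly6c2 was above 0 in 7 libraries, under the 10 that this measure required.

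Of 41 other genes of the LY6/uPAR family, 32 had rows and 8 were tested. In GC-PB vs Fraction 1, 3 of them (Ly6f, Ly6k and Ly6i) passed the test as higher and 0 as lower, where 14.0% of all tested genes were called higher and 22.7% lower (limma, adjusted p under 0.05). Ly6i entered the test only through the GC-PB libraries, and among genes above 0 in at least 6 libraries the count was 2, so no support is drawn from it. Ly6f, at chr15:75268421-75272235, had a level of 4.71, 3.02 and 4.75 in GC-PB and 0.246, 0.225 and 0 in Fraction 1, a log2 difference of 2.15 ± 0.19 (adjusted p = 9.35e-09). Its GC-PB values rest on 11 to 16.5 molecules and those of Fraction 1 on at most 1.5, most of them not whole. Ly6k had 3.25, 2.47 and 2.88 in GC-PB and 3.12, 1.05 and 0.172 in Fraction 1 (0.84 ± 0.31, adjusted p = 0.0372). These groups overlapped, and the call was lost as deposited (adjusted p = 0.246), with a pseudocount of 0.5, with no filter and without Fraction 1 replicate 2 or 3 or GC-PB replicate 1 or 3. Ly6i was at 1.33 to 1.5 molecules in GC-PB and listed at 0 elsewhere, under the floor, so no fold is given for it. Cd59a, which encodes a complement inhibitor, averaged 0.825 in GC-PB, 0.284 in Fraction 1, 0.686 in Fraction 2, 1.66 in Fraction 3 and 1.93 in DZ. In GC-PB vs Fraction 1 it was not called at equal totals with all libraries (0.54 ± 0.24, limma, adjusted p = 0.0907). Its lowest adjusted p over the alternatives was 0.0313. The family counts were 2 higher and 1 lower as deposited, beside 1250 and 5130 of all 11190 genes. By median ratios they were 4 and 0, beside 2081 and 1969. None of these 8 genes was called by limma in the steps within the germinal centre at equal totals over the 11190 genes. Ly6k in Fraction 1 vs Fraction 2 lay near the threshold (0.96 ± 0.31, adjusted p = 0.0576). It was called higher as deposited (adjusted p = 0.00215), among genes above 0 in at least 6 libraries and without Fraction 1 replicate 3. At an unadjusted p under 0.05 there was 1 higher in Fraction 1 vs Fraction 2, 1 higher and 1 lower in Fraction 2 vs Fraction 3, and 0 in Fraction 3 vs DZ. The share of all tested genes at an unadjusted p is not given here, so nothing is read from these counts. At adjusted p under 0.05 (limma), 3.4% of all tested genes were higher and 5.18% lower in Fraction 1 vs Fraction 2. The shares were 0.357% and 0.223% in Fraction 2 vs Fraction 3, and 0.465% and 0.411% in Fraction 3 vs DZ.

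The GPI anchor, which most LY6 proteins carry, is built in the endoplasmic reticulum by the PIG enzymes and joined to the protein there. Of 31 tested genes of anchor synthesis, transfer and transport, 5 were higher and 0 lower in GC-PB vs Fraction 1. The higher count is near the share over all tested genes, 14.0% higher and 22.7% lower, and is no result on the list as a whole. As deposited the counts were 6 and 11, beside 1250 and 5130 of all 11190 genes. By median ratios they were 7 and 0, beside 2081 and 1969. Without GC-PB replicate 3 they were 7 and 3, beside 1487 and 2387. Tmed10 and Tmed2 encode cargo receptors that carry GPI-anchored proteins to the Golgi. Tmed10 had 65.0, 58.0 and 52.2 in GC-PB and 8.54, 9.60 and 7.56 in Fraction 1 (2.63 ± 0.19, adjusted p = 4.72e-10). Tmed2 had 42.6, 53.0 and 51.9 in GC-PB and 10.01, 14.8 and 13.1 in Fraction 1 (1.89 ± 0.19, adjusted p = 7.42e-08). Dpm3, a subunit of the enzyme that makes the mannose donor of the anchor and of N-glycans, had 19.8, 18.7 and 18.2 in GC-PB and 3.28, 3.15 and 2.58 in Fraction 1 (2.32 ± 0.18, adjusted p = 1.17e-09). The other called genes were Pigt and Pigk, both subunits of the transamidase that attaches the anchor, at 1.33 and 1.19. No gene of this list was called by limma in the other comparisons at equal totals with all libraries, and 1 was called lower in Fraction 1 vs Fraction 2 without Fraction 2 replicate 3. At an unadjusted p under 0.05 there were 0 higher and 3 lower in Fraction 1 vs Fraction 2, 3 and 1 in Fraction 2 vs Fraction 3, and 1 and 1 in Fraction 3 vs DZ. Nothing is read from these unadjusted counts, since the share over all genes is not given here. As deposited, 20 were higher and 0 lower in Fraction 1 vs Fraction 2, beside 6120 and 63 of all 11190 genes. The median over all genes was itself 0.64 there.

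Among 11 tested genes of other GPI-anchored lymphocyte proteins, 4 were higher and 2 lower in GC-PB vs Fraction 1, beside 14.0% and 22.7% of all tested genes. As deposited the counts were 2 and 3, beside 1250 and 5130 of all 11190 genes. Cd52, a short lymphocyte glycoprotein, had 353, 347 and 421 in GC-PB and 100, 107 and 107 in Fraction 1 (1.82 ± 0.11, adjusted p = 2.56e-11). Its level was 167, 159 and 155 in Fraction 2, and it was lower in Fraction 1 than there by the test (-0.61 ± 0.11, adjusted p = 0.00118), with 0.84 as deposited. Ly6e had the same order of these 3 groups and the same turn of sign. Cd52 was also higher in Fraction 3 than in DZ (0.95 ± 0.11, adjusted p = 0.000183). Cd24a, a marker of B cell development, was the other gene called lower in Fraction 1 than in Fraction 2 (-0.52 ± 0.13, adjusted p = 0.0132, with 0.90 as deposited), a call lost by median ratios and without Fraction 2 replicate 1 or Fraction 1 replicate 1 or 3. It was higher in GC-PB than in Fraction 1 at equal totals (0.91 ± 0.13, adjusted p = 6.13e-06), a call lost as deposited (0.23, adjusted p = 0.21). Prnp, the prion protein gene, was the other higher gene at 0.37. Nt5e, which encodes CD73, fell by 1.04 in GC-PB relative to Fraction 1, and Cd48, a ligand of SLAM family receptors, by 0.52. Bst2 encodes tetherin, which holds budding virus at the cell surface. It had 28.3, 20.3 and 13.8 in GC-PB and 1.48, 1.95 and 1.03 in Fraction 1 (3.10 ± 0.25, adjusted p = 1.72e-09).

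**Figure D4:**
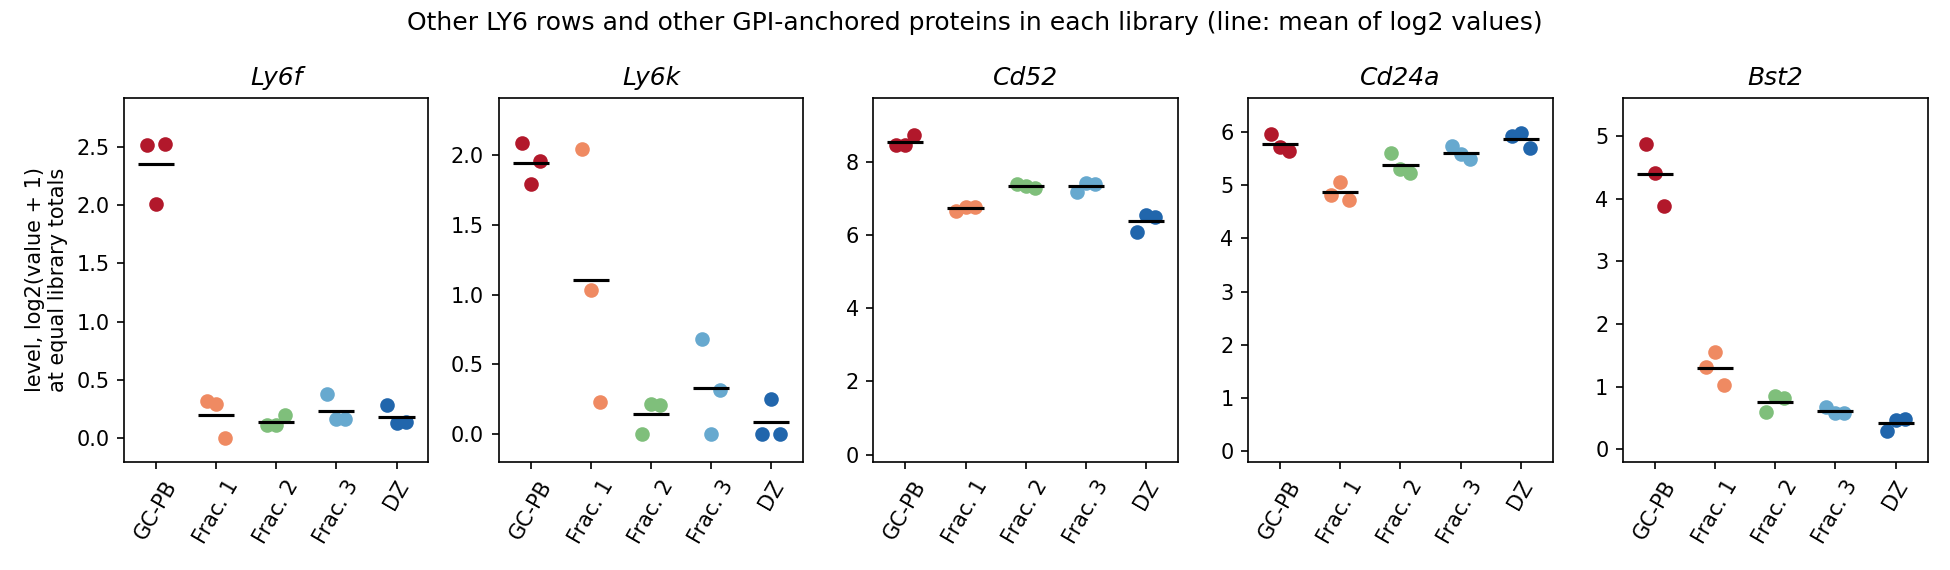
Levels of Ly6f, Ly6k, Cd52, Cd24a and Bst2 in each library, as log2(value + 1) at equal library totals (vertical axes differ), with lines at the mean of the log2 values. GC-PB and Fraction 1 are separate for each gene except Ly6k, whose Fraction 1 libraries reach from 0.172 to 3.12.

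Interferon-responsive genes were counted because Ly6a, Ly6c and Ly6e are known to respond to interferons in the mouse. The list was chosen with earlier results of these data known, and a gene could enter the test through the 3 GC-PB libraries alone. Its counts are therefore a description. Of 41 tested genes, 22 were higher and 2 lower in GC-PB vs Fraction 1, where 14.0% of all tested genes were higher and 22.7% lower, with a median log2 difference of 0.63 against -0.08 over all genes. The counts were 18 and 7 as deposited, beside 1250 and 5130 of all 11190 genes, and 25 and 0 by median ratios, beside 2081 and 1969. Ifi27l2a had 97.8, 123 and 114 in GC-PB and 13.05, 11.8 and 15.7 in Fraction 1 (2.96 ± 0.14, adjusted p = 7.12e-13). Isg20, an exonuclease gene, had 24.4, 25.01 and 27.4 in GC-PB and 0.985, 0.900 and 0.687 in Fraction 1 (3.84 ± 0.27, adjusted p = 3.26e-10). Bst2 is in this list as well. Among the lower genes was Gbp2, a guanylate-binding protein gene, at -0.78. In the steps within the germinal centre 1 gene was called lower in Fraction 2 vs Fraction 3 (Ifi27l2a, -0.76, lost as deposited and without Fraction 3 replicate 2 or Fraction 2 replicate 3) and 1 in Fraction 1 vs Fraction 2 (Samhd1, -0.82 at equal totals and 0.52 as deposited), and 0 by limma in Fraction 3 vs DZ, where 1 was higher and 3 lower at an unadjusted p under 0.05. For that unadjusted count the share over all genes is not given here, so nothing is read from it. As deposited, 20 of the 41 were higher and 0 lower in Fraction 1 vs Fraction 2, beside 6120 and 63 of all 11190 genes.

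Since Ly6a and the Ly-6C genes mark other blood cells too, marker lists of those cells were summed in each library. Of 12 myeloid marker rows, 2 were above 0 in any GC-PB library, with a summed level of 1.20 to 2.63 in GC-PB and 0.617 to 1.55 in Fraction 1. Lyz2, Csf1r, Itgam, Cd14, S100a8 and S100a9 were at 0 in GC-PB. Of 14 T cell rows, 3 were above 0 in GC-PB, with a sum of 13.5 to 15.9 there and 5.09 to 7.90 in Fraction 1. Cd28, a receptor that plasma cells also express, accounted for a mean of 13.8 of the GC-PB sum, while Cd3e, Cd3d, Cd4, Cd8a and Thy1 were at 0. Of 8 plasmacytoid dendritic cell rows, 6 were above 0 in GC-PB and 5 in Fraction 1, with a sum of 35.4 to 47.1 in GC-PB and 13.2 to 18.5 in Fraction 1. Bst2 had a mean of 20.8 in GC-PB and 1.49 in Fraction 1, and Tcf4 had 17.6 in GC-PB and 13.2 in Fraction 1. They made up most of both sums, and both were called higher at equal totals. The limma call of Tcf4 (0.39 ± 0.15, adjusted p = 0.0436) was lost as deposited, where its sign turned (-0.27). It was also lost with Rn45s in the total, with no filter, with a replicate block, and without replicate 1 or 3 of either group. Ccr9 and Cox6a2 averaged 0.108 and 0.0961 in GC-PB and were at 0 in Fraction 1, while Siglech and Klk1 were at 0 in GC-PB. The part of such cells in the levels of the LY6 genes was not tested. Stromal and endothelial markers summed to 0 to 1.62 in GC-PB, with 1 of 11 rows above 0, and to 0.150 to 0.344 in Fraction 1. The plasma cell rows, 13 in number, summed to 4266 to 6049 in GC-PB and 51.4 to 64.2 in Fraction 1. They include Sdc1, the gene of the sort gate, and Ly6k, so the sum only describes the sort. The B cell markers summed to 134 to 166 in GC-PB, 174 to 198 in Fraction 1, 319 to 336 in Fraction 2, 411 to 459 in Fraction 3 and 370 to 411 in DZ, and Pax5 was at 0 in GC-PB.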

How the data were processed

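The labels' protocols describe equal ERCC spike-in RNA added to each tube, molecular barcodes attached at reverse transcription, template switching and PCR. The submitters' processing notes name TopHat2 and mm10; the counter and annotation are not given in the sources used here. The deposited signal table has 23420 genes in 15 libraries and states no unit. The most frequent value above 0 of each library was taken as 1 molecule, and 91.0% to 92.6% of values above 0 were whole multiples of it (tolerance 0.02), too few for a count test. Rn45s, 3.31% to 9.97% of the totals, was left out, and values were scaled to a common total of 53844.9. On log2(value + 1), limma 3.58.1 (R 4.3.3, trended prior) estimated 5 group means for 11190 genes, those detected in 3 or more libraries. A gene was called where its p, adjusted by Benjamini-Hochberg over these genes, was under 0.05. Fold changes on this scale understate those of low genes. Counting intervals (95%, exact) and the floor of 3 molecules cover counting error only. The 5 genes and the gene lists were chosen with earlier results of these data known. Named genes are these 5, the 3 nearest profiles of each, up to 3 called genes with the smallest p per list and comparison, and other family rows with a group mean of at least 1. Ly6i, Pigt, Pigk, Prnp, Nt5e, Cd48, Ccr9, Cox6a2 and Gbp2 were named after their values were seen, and 1 called gene is not reported here. The fit was tested on simulated data. Positions came from GENCODE M21; sequences came from RefSeq, which held promoters for 2 of the 5 genes. Alternatives were other scales, pseudocounts and filters, a replicate block, and leaving out single libraries.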

Additional observations from a re-analysis of the deposited data

How the results depend on the processing

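The scale moved the counts of calls most, and the median log2 difference over all genes as deposited was -0.02 in Fraction 3 vs DZ, 0.15 in Fraction 2 vs Fraction 3, 0.64 in Fraction 1 vs Fraction 2 and -0.42 in GC-PB vs Fraction 1. As deposited, 27 genes were called in Fraction 3 vs DZ (98 at equal totals), 301 in Fraction 2 vs Fraction 3 (65), 6183 in Fraction 1 vs Fraction 2 (960) and 6380 in GC-PB vs Fraction 1 (4104). Their splits were 299 higher and 2 lower in the second, 6120 and 63 in the third and 1250 and 5130 in the last, against 40 and 25, 380 and 580, and 1566 and 2538 at equal totals. Differences as deposited in Fraction 2 vs Fraction 3 were 0.021 for Ly6a, a reversed sign, 0.36 for Ly6d and 0.35 for Ly6e. In Fraction 1 vs Fraction 2 they were 1.18 for Ly6a and 0.83 for Ly6e, both turned in sign, and 1.54 for Ly6d. In GC-PB vs Fraction 1 they were 4.43 for Ly6a, 0.32 for Ly6d and 1.00 for Ly6e, and by median ratios 5.33, 1.21 and 1.97. A pseudocount of 0.5 gave 4.27 for Ly6c1 and 8.53 for Ly6c2 in GC-PB vs Fraction 1, and a pseudocount of 2 gave 2.68 and 6.74. In Fraction 2 vs Fraction 3, median ratios gave 43 calls. Under these settings and the others run, 170 further values moved by less than the replicate spread or, for counts, by under 1.5 times.

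Same-numbered libraries did not deviate together (12 correlations, -0.0272 to 0.0243), so the numbers do not pair them. With the replicate number as a block, 79, 36, 903 and 4066 genes were called, in the order of comparisons above.

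Leaving out single libraries gave 37 to 81 calls in Fraction 3 vs DZ, 18 to 32 in Fraction 2 vs Fraction 3, 514 to 642 in Fraction 1 vs Fraction 2 and 3518 to 3910 in GC-PB vs Fraction 1, with fewer libraries in each fit. In the first, every omission but that of Fraction 3 replicate 1 lowered the count by over 1.5 times, in the second every one did, and in the third every one but that of Fraction 1 replicate 2. The difference of Ly6a in Fraction 1 vs Fraction 2 ran from -0.28 to 0.058, turning positive without Fraction 1 replicate 1. In GC-PB vs Fraction 1 Ly6a ran from 4.85 to 5.19, Ly6c1 from 3.09 to 3.74 and Ly6c2 from 7.27 to 7.96, with the lowest values without Fraction 1 replicate 1 for Ly6a and without GC-PB replicate 1 for the Ly-6C pair. Ly6c1 and Ly6c2 cannot be ordered among germinal centre groups at this depth.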
